A study of Mus musculus with 12 samples.

Results

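The genes described here are 34 mouse genes of the ATF4 programme and the cellular response to amino acid shortage, picked by symbol among the 55421 Ensembl identifiers of 1 count table, and each of the 34 symbols was found there. RNA was sequenced from 2 cultured mouse lines, PMJ2R and ID8, in 4 groups of 3 libraries. PMJ2R is a peritoneal macrophage line of C57BL6J origin that carries the v-raf and v-myc oncogenes, and was given rebastinib, a small-molecule kinase inhibitor, at 5 nM for 6 h (PMJ2R rebastinib) or left as the labelled control (PMJ2R control). ID8 is an ovarian surface epithelial line labelled C57BL6J wildtype, widely used as a mouse model of ovarian cancer, and was given the same dose for the same time (ID8 rebastinib) or left as control (ID8 control). The lines were grown in media of different composition, so line and medium cannot be told apart. The labels do not state what the control cells received. They also leave unstated where the 3 libraries of a group came from, and p-values then measure the spread of those libraries alone, which may be technical.

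ATF4 is a bZIP transcription factor whose messenger RNA is translated preferentially when kinases such as GCN2 and PERK phosphorylate the translation factor eIF2, a state called the integrated stress response. It induces genes that import and synthesise amino acids, charge transfer RNAs and restrain the growth kinase mTORC1, and it shares many targets with the partner factor CHOP, encoded by Ddit3. Because ATF4 is controlled mostly at translation, the level of its messenger RNA is not a measure of its activity. In macrophages and in carcinoma cells the same programme supplies serine, asparagine, proline and cystine during growth.

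ATF4 dimers bind a composite of C/EBP and ATF sites, written TGATGNAA, so the promoter windows of the genes were searched for these letters on both strands. A RefSeq window of 250 bases before to 50 bases after an annotated start (build GRCm38.p6) existed for 30 of the 34 genes. Of these, 9 held the motif, against 4.51% of all 27025 genes with a window. The 9 stretches of 30 bases around the first match are shown because they hold the letters that the pathway's own factor is known to bind. They are read on the gene's own strand, with the match in capitals, which appears as its reverse complement where it lies on the other strand.
Asns, chr6:7693214-7693243, minus strand: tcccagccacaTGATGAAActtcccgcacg
Slc7a11, chr3:50443661-50443690, minus strand: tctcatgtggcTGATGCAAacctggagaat
Trib3, chr2:152344028-152344057, minus strand: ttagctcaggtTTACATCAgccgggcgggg
Chac1, chr2:119351038-119351067, plus strand: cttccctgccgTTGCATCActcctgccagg
Pycr1, chr11:120643833-120643862, minus strand: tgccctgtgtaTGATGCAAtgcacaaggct
Atf3, chr1:191183425-191183454, minus strand: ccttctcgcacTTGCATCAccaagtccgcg
Nupr1, chr7:126625562-126625591, minus strand: aaagggccagaTTGCATCAgacagggcttg
Slc1a4, chr11:20332699-20332728, minus strand: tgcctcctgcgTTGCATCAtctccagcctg
Vldlr, chr19:27216809-27216838, plus strand: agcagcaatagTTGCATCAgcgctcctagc

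The match began 23 bases before the RefSeq start in Asns, 66 in Slc7a11, 103 in Pycr1 and 110 in both Atf3 and Nupr1. It began 193 bases before it in Chac1 and 200 in Vldlr, counted there from the later of the RefSeq starts. The window of the earlier Vldlr start held no match. The match straddled the RefSeq start in Slc1a4 and lay after that start in Trib3. Gene bounds in the annotation used for symbols differed: there the match lay before the first base of Trib3. In the same annotation the spans of Asns, Atf3, Nupr1 and Vldlr contained their matches. The 250 bases before the start are given for Asns, Slc7a11 and Chac1, since these 3 genes with a match had 3 patterns of calls: Asns was called higher in both lines, Slc7a11 higher in PMJ2R and in neither direction in ID8, and Chac1 in neither direction in PMJ2R and lower in ID8. Slc7a11 held a second match, on the other strand, also in capitals.
Asns, chr6:7693210-7693459, minus strand: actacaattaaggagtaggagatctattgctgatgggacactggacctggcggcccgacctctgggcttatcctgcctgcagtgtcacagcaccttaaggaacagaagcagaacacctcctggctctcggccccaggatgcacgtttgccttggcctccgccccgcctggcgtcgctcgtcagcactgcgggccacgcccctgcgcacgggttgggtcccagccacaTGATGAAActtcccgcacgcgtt
Slc7a11, chr3:50443614-50443863, minus strand: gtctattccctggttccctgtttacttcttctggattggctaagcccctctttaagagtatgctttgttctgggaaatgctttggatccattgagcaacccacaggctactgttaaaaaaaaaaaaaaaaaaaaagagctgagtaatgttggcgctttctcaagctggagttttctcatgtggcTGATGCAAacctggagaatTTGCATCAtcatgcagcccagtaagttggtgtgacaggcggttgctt
Chac1, chr2:119350992-119351241, plus strand: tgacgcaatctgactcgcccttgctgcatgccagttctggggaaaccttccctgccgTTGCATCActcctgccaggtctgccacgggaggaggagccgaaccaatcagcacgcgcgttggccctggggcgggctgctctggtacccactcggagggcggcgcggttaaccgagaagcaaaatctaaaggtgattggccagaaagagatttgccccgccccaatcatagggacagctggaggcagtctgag

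A match is a description of letters in a window and says nothing about whether ATF4 was bound. Of the 8 genes with a match that were tested in PMJ2R, 5 were called higher with rebastinib, 1 lower and 2 in neither direction. In ID8, 1 of the 9 was called higher, 7 lower and 1 in neither direction. Of the 21 genes with a window but no match, 17 were called higher and 4 lower in PMJ2R, and 10 higher and 7 lower in ID8. Among all genes tested, 40.3% were called higher and 43.3% lower in PMJ2R, and 38.4% higher and 42.0% lower in ID8. The split by motif was made after the values were seen, and it was not tested.

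Libraries held 19025504 to 20242502 counts in PMJ2R rebastinib, 23200008 to 27070556 in PMJ2R control, 19057954 to 24971090 in ID8 rebastinib and 22102800 to 23486355 in ID8 control. Macrophage markers stood at 1 CPM (the standard depth-scaled count) or more for 9 of 10 genes in PMJ2R, where Mertk was the exception. In ID8 2 of 10 did so, Cd68 and Csf1r. For the markers CPM was taken from library totals, and the CPM values of genes given below are after TMM scaling. All 10 ovarian surface and mesothelial markers passed 1 CPM in ID8 and none did in PMJ2R. Of 5 fibroblast markers, 3 passed in ID8 (Pdgfra, Col1a1 and Dcn) and none in PMJ2R. No endothelial or lymphocyte marker listed passed 1 CPM in either line. Genes that overlap ribosomal RNA took 5.63 to 5.99% of counts in PMJ2R rebastinib and 0.0927 to 0.172% in PMJ2R control, and 1.05 to 1.60% in ID8 rebastinib and 0.106 to 0.355% in ID8 control. Ribosomal protein genes took 6.64 to 6.90% in PMJ2R rebastinib and 4.43 to 5.13% in PMJ2R control, and 7.55 to 9.31% in ID8 rebastinib and 4.10 to 4.74% in ID8 control. Mitochondrially encoded genes took 5.51 to 5.88% in PMJ2R rebastinib and 3.50 to 4.25% in PMJ2R control, and 4.74 to 5.12% in ID8 rebastinib and 2.92 to 3.14% in ID8 control. These shares separated the groups within each line, and what part they had in the results was not tested. No batch is labelled, and any unequal handling of rebastinib and control cells cannot be told apart from treatment.

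In PMJ2R macrophages most genes of the ATF4 programme were higher with rebastinib, whereas in ID8 cells they split between higher and lower. Each line was tested with edgeR's quasi-likelihood test over all its genes, with Benjamini-Hochberg adjustment and a call at an adjusted p under 0.05. In PMJ2R, 33 of the 34 genes passed the expression filter, since Vldlr had almost no counts. Of the 33, 25 were called higher and 6 lower with rebastinib, against 40.3% higher and 43.3% lower among the 14010 genes tested. With a fold change of at least 2, 15 were higher and 1 lower, Stc2, against 15.8% and 25.6% of all genes. The median log2 fold change was 0.78 over the 33 genes and -0.04 over all genes tested. In ID8 all 34 genes were tested, and 13 were called higher and 15 lower, against 38.4% higher and 42.0% lower of 14829 genes, so the shares lay near those of all genes. At least 2-fold, 3 were higher (Sesn2, Eif4ebp1 and Phgdh) and 5 lower (Chac1, Trib3, Pycr1, Nupr1 and Vldlr), against 15.6% and 24.4% of all genes. The median was -0.13 in ID8, against -0.07 over all its genes. In bulk RNA, fewer responding cells and a smaller response per cell cannot be told apart.

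**Figure D1:**
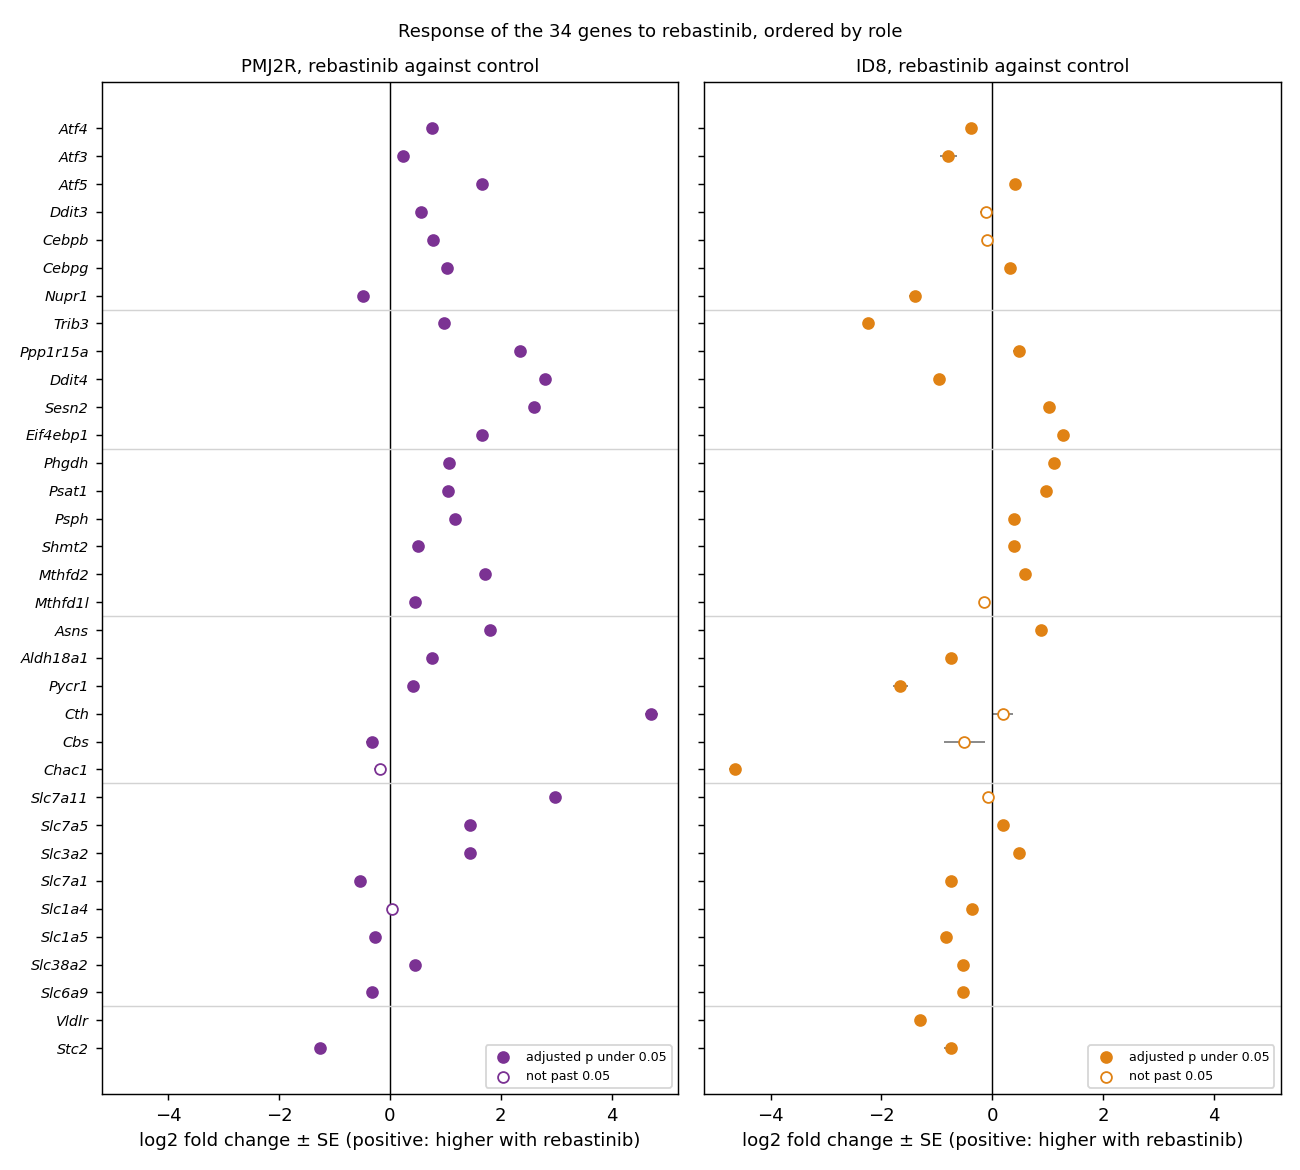
Log2 fold change of each of the 34 genes with its SE, rebastinib against control, in PMJ2R (left) and ID8 (right), ordered by role. Filled points passed an adjusted p of 0.05 and open points did not. In PMJ2R most points lie to the right of 0, with Cth at 4.72 and Stc2 at -1.27 at the ends, and in ID8 they lie on both sides, with Eif4ebp1 at 1.28 and Chac1 at -4.64 at the ends. Vldlr was not tested in PMJ2R. Scaling by library totals moved the median of all genes to -0.60 in PMJ2R and -0.50 in ID8, and small positive values then turned negative, among them Atf3, Shmt2, Mthfd1l, Pycr1, Slc1a4 and Slc38a2 in PMJ2R and Atf5, Cebpg, Psph, Shmt2, Cth and Slc7a5 in ID8.

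The calls in the 2 lines were then set side by side. Both lines called 13 of the genes higher: Atf5, Cebpg, Ppp1r15a, Sesn2, Eif4ebp1, Phgdh, Psat1, Psph, Shmt2, Mthfd2, Asns, Slc7a5 and Slc3a2, against 30.1% of the 12398 genes tested in both. Another 7, Atf4, Atf3, Trib3, Ddit4, Aldh18a1, Pycr1 and Slc38a2, were higher in PMJ2R and lower in ID8, against 4.36% of genes. Both lines called 5 lower, Nupr1, Slc7a1, Slc1a5, Slc6a9 and Stc2, against 30.1% of genes. In PMJ2R alone, 5 passed the test as higher (Ddit3, Cebpb, Mthfd1l, Cth and Slc7a11) and 1 as lower (Cbs), and in ID8 alone Chac1 and Slc1a4 passed as lower, as did Vldlr, which was not tested in PMJ2R. Passing in 1 line is no test of a difference between the lines, which is given below for each gene. With library totals as the scale, the counts were 19 higher and 11 lower in PMJ2R and 6 higher and 21 lower in ID8. Of all genes tested, 22.1% were then higher and 61.9% lower in PMJ2R, and 23.9% higher and 57.1% lower in ID8.

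**Figure D2:**
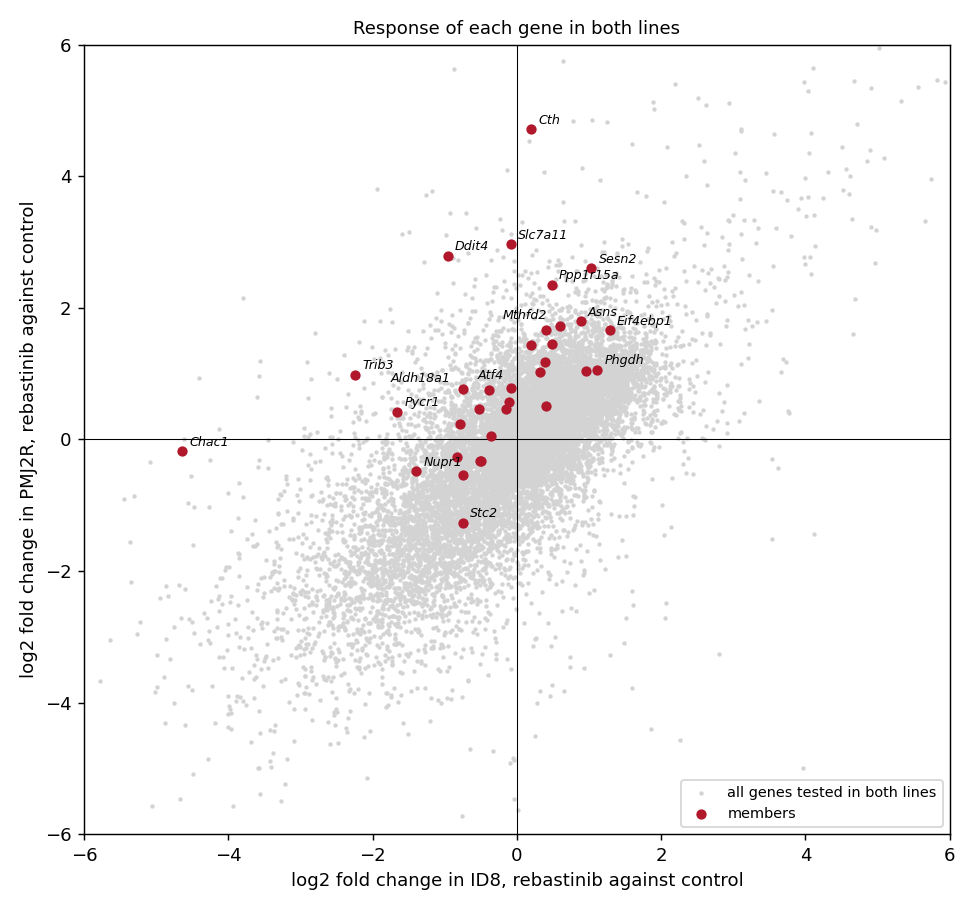
Log2 fold change of each gene with rebastinib against control in PMJ2R (vertical axis) and in ID8 (horizontal axis), for the 12398 genes tested in both lines (grey) and the 33 genes of the programme tested in both (red). A total of 54 genes lie outside the plotted range of 6 in either direction. Ddit4, Trib3, Aldh18a1, Pycr1 and Atf4 lie in the upper left, higher in PMJ2R and lower in ID8, where with library totals as the scale Pycr1 stood at -0.14 in PMJ2R and left it.

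Among the 7 transcription factors, 6 were called higher and Nupr1 lower in PMJ2R, against 40.3% and 43.3% of all genes. In ID8 2 were higher, 3 lower and 2 not called, against 38.4% higher and 42.0% lower of all genes. Atf4 itself stood at 614, 620 and 632 CPM in PMJ2R rebastinib and at 357, 368 and 382 CPM in PMJ2R control. In ID8 it stood at 550, 524 and 479 CPM with rebastinib and at 664, 649 and 719 CPM in control. The groups did not overlap in either line, and they were ordered in opposite ways. The log2 fold change was 0.75 (SE 0.0437, edgeR adjusted p = 1.34e-11) in PMJ2R and -0.39 (SE 0.0763, edgeR adjusted p = 0.000297) in ID8, and the difference of 1.08 (SE 0.0902) had an edgeR adjusted p of 7.57e-10. Both lines kept these directions with library totals as the scale (0.19 in PMJ2R and -0.82 in ID8). Differences between the lines, here and below, come from a fit of all 12 libraries with its own scaling. They are therefore not the exact subtraction of the 2 values given for the lines.

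Ddit3, which encodes CHOP, the pro-apoptotic partner of ATF4, was a low transcript in PMJ2R. It had 11.1, 11.7 and 11.98 CPM in PMJ2R rebastinib and 8.06, 7.80 and 7.63 CPM in PMJ2R control. In ID8 it had 26.1, 24.0 and 18.7 CPM with rebastinib and 24.2, 24.1 and 25.4 CPM in control, where the groups overlapped. The log2 fold change was 0.57 (SE 0.0995, edgeR adjusted p = 4.24e-05) in PMJ2R and -0.11 (SE 0.112, edgeR adjusted p = 0.390) in ID8. The PMJ2R call was lost with library totals as the scale (0.00) and on removal of trends with transcript length and GC (0.20, edgeR adjusted p = 0.0728). In ID8 both settings called Ddit3 lower, at -0.54 (edgeR adjusted p = 3e-04) with library totals and -0.52 (edgeR adjusted p = 0.000145) with those trends removed. Ddit3 shares 105 of its exon bases with a second Ensembl entry of the same symbol, and it also shares bases with Mars on the opposite strand.

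Atf5, a related bZIP factor, rose in PMJ2R to 165 ± 2.63 CPM, against 51.9 ± 5.55 CPM in control (SD, n = 3 each), a log2 fold change of 1.67. In ID8 it rose to 165 ± 14.6 CPM, against 125 ± 6.36 CPM in control, a change of 0.41. Cebpg, a dimer partner of ATF4, rose by 1.03 in PMJ2R and by 0.32 in ID8. In ID8 both changes turned slightly negative with library totals, at -0.03 for Atf5 and -0.11 for Cebpg. Cebpb, another C/EBP factor, rose by 0.78 in PMJ2R and did not pass the test in ID8 (-0.09, edgeR adjusted p = 0.331), where library totals called it lower (-0.52). Its exons overlap Tmem189 on the opposite strand over 20.7% of their length. Atf3, a stress-induced repressor of the ATF family, was called slightly higher in PMJ2R (0.24, SE 0.0739, edgeR adjusted p = 0.00665) and fell in ID8 (-0.80, SE 0.155, edgeR adjusted p = 0.000271). The PMJ2R call on Atf3 was lost with DESeq2 (adjusted p = 0.0592) and turned to -0.33 with library totals. Nupr1, a small stress-induced nuclear protein, was lower in both lines, at -0.49 in PMJ2R and -1.40 in ID8.

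**Figure D3:**
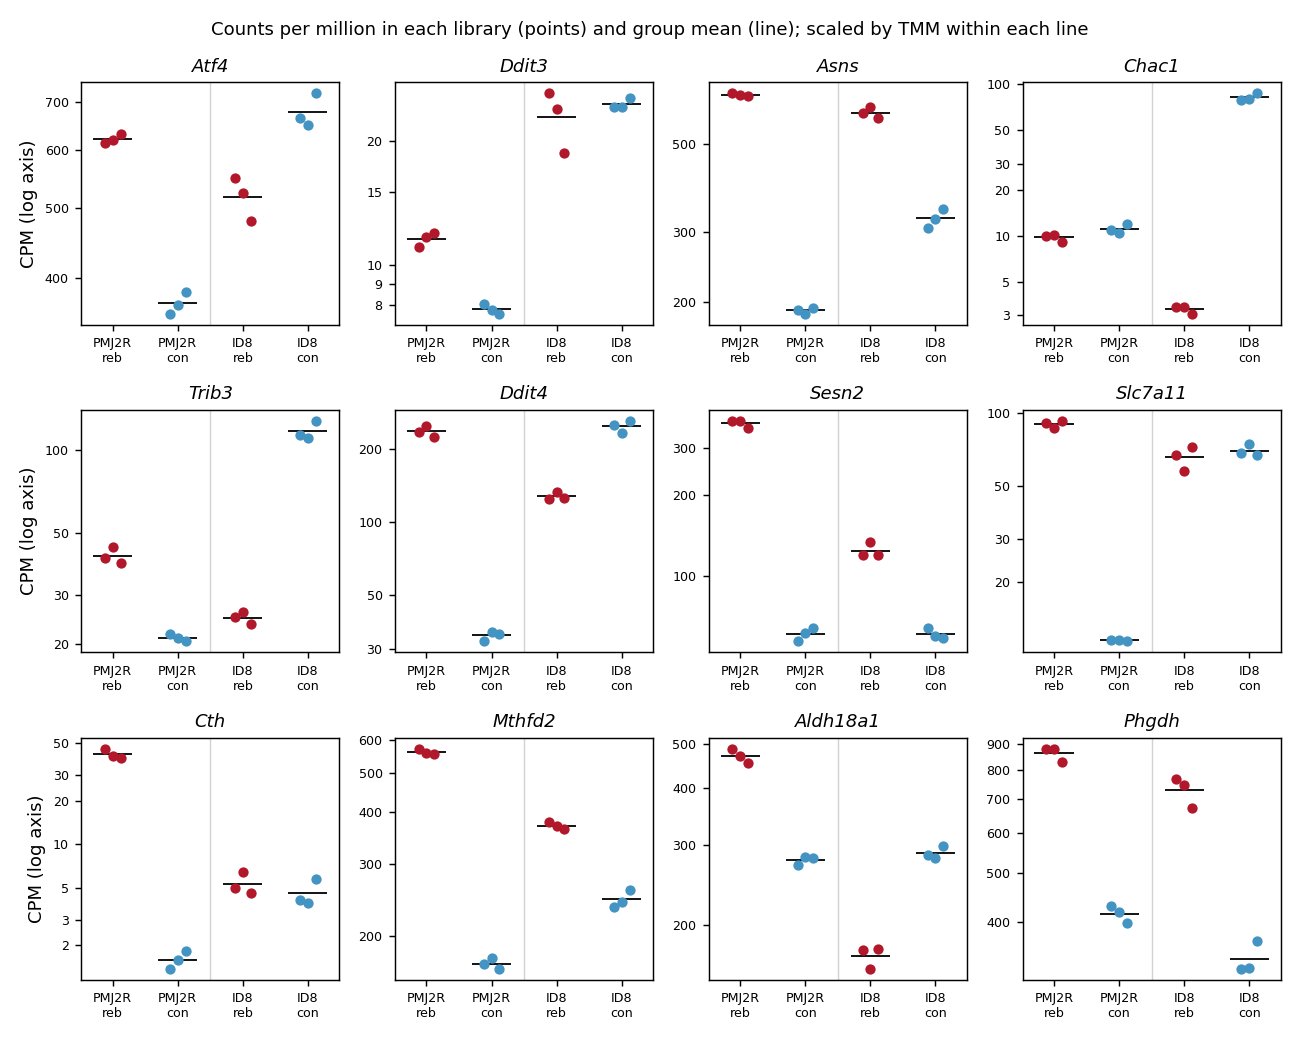
CPM of 12 genes in each library (points) with the group mean (line) on logarithmic axes, PMJ2R on the left and ID8 on the right of each panel, rebastinib (red, reb) before control (blue, con). Values were scaled within each line, so heights are compared within a line. Asns, Sesn2, Mthfd2 and Phgdh stand higher with rebastinib in both lines, Trib3, Ddit4, Aldh18a1 and Atf4 stand higher in PMJ2R and lower in ID8, and Chac1 is at 3.08 to 3.40 CPM in ID8 rebastinib against 78.2 to 87.1 CPM in ID8 control.

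The 5 genes of feedback and mTORC1 restraint were all called higher in PMJ2R, against 40.3% of all genes, with a median log2 fold change of 2.35. In ID8 3 were called higher and 2 lower, against 38.4% and 42.0% of all genes. These directions held with library totals, where Ppp1r15a was no longer called in ID8 (0.05). Ddit4, also called REDD1, restrains mTORC1 through the TSC complex and had the smallest p of the genes in PMJ2R. It stood at 235, 248.6 and 224 CPM in PMJ2R rebastinib and at 32.3, 35.3 and 34.7 CPM in PMJ2R control. In ID8 the order was the reverse, with 124, 133 and 126 CPM in rebastinib and 250, 233 and 260 CPM in control. The fold change was 6.92 in PMJ2R (log2 2.79, SE 0.0555, edgeR adjusted p = 2.64e-17), and in ID8 the log2 value was -0.96 (SE 0.0691, edgeR adjusted p = 1.23e-08). The difference between the lines, 3.69 on the log2 scale (SE 0.0929, edgeR adjusted p = 7.9e-19), had the smallest p among the 34 genes.

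Sesn2, a leucine-binding stress protein that restrains mTORC1 through GATOR2, was higher in both lines. It had 378, 377 and 355 CPM in PMJ2R rebastinib and 57.1, 61.3 and 63.8 CPM in PMJ2R control. In ID8 it had 120, 134 and 120 CPM with rebastinib and 64.0, 59.6 and 58.8 CPM in control. The groups were apart in both lines, by 2.61 (SE 0.0520, edgeR adjusted p = 2.64e-17) in PMJ2R and 1.03 (SE 0.0740, edgeR adjusted p = 1.19e-08) in ID8 on the log2 scale, and the response was larger in PMJ2R by 1.51 (edgeR adjusted p = 4.57e-12).

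Trib3, a pseudokinase that binds ATF4 and limits its activity, went opposite ways. It had 40.9, 44.6 and 39.0 CPM in PMJ2R rebastinib and 21.6, 21.0 and 20.4 CPM in PMJ2R control. ID8 libraries had 24.9, 26.1 and 23.5 CPM with rebastinib and 113, 110 and 127 CPM in control. No library of one group reached the other within either line. The log2 fold change was 0.98 (SE 0.0698, edgeR adjusted p = 2.47e-10) in PMJ2R and -2.24 (SE 0.0831, edgeR adjusted p = 2.32e-11) in ID8, with a difference of 3.16 (SE 0.109, edgeR adjusted p = 1.33e-16).

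Ppp1r15a, also called GADD34, the regulatory subunit that brings a phosphatase to eIF2, rose 5.11-fold in PMJ2R, to 58.3 ± 0.862 CPM against 11.4 ± 0.717 CPM in control (SD, n = 3 each). In ID8 it rose 1.4-fold, to 27.6 ± 3.58 CPM against 19.7 ± 1.05 CPM in control. Eif4ebp1, which encodes a repressor of cap-dependent translation that mTORC1 inactivates, rose by 1.66 in PMJ2R and by 1.28 in ID8 on the log2 scale. Its difference between the lines, 0.31 (edgeR adjusted p = 0.0235), was not stable. It missed the threshold with the replicate number as a block (edgeR adjusted p = 0.0533). It also missed it without PMJ2R rebastinib replicate 1 (edgeR adjusted p = 0.0605) or 2 (0.0545), PMJ2R control replicate 1 (0.056) or 2 (0.0531), ID8 rebastinib replicate 3 (0.0537) or ID8 control replicate 3 (0.0911).

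The 6 serine and one-carbon enzymes were all called higher in PMJ2R, against 40.3% of all genes. In ID8 5 of them were called higher, against 38.4% of all genes, and Mthfd1l was not called. Phgdh, Psat1 and Psph make serine from a glycolytic intermediate in succession. Phgdh stood at 883, 881 and 830 CPM in PMJ2R rebastinib and at 429, 418 and 397 CPM in PMJ2R control. In ID8 it stood at 768, 748 and 672 CPM with rebastinib and at 322, 323 and 366 CPM in control. The groups were separate in both lines and the log2 fold changes were close, 1.06 (SE 0.0466, edgeR adjusted p = 2.72e-13) in PMJ2R and 1.11 (SE 0.0797, edgeR adjusted p = 1.14e-08) in ID8. The difference of -0.12 in the fit of all 12 libraries (SE 0.092, edgeR adjusted p = 0.307) did not pass the threshold, which does not show that the responses were equal. Psat1 rose by 1.04 on the log2 scale in PMJ2R, to 1681 ± 35.4 CPM with rebastinib against 815 ± 43.1 CPM in control (SD, n = 3 each). In ID8 it rose by 0.96, to 1260 ± 44.6 CPM against 647 ± 36.9 CPM in control. Psph rose by 1.17 in PMJ2R and 0.38 in ID8, and it shares 10.4% of its exon bases with Cct6a on the opposite strand.

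Mthfd2, the mitochondrial folate dehydrogenase, is among the ATF4 targets most often raised in tumours. It had 572, 558 and 555 CPM in PMJ2R rebastinib and 170, 176 and 166 CPM in PMJ2R control. ID8 libraries had 378, 371 and 364 CPM with rebastinib and 235, 242 and 259 CPM in control. All rebastinib libraries were above all control libraries, by 1.72 (SE 0.0442, edgeR adjusted p = 3.02e-16) in PMJ2R and 0.60 (SE 0.0663, edgeR adjusted p = 1.11e-06) in ID8, with a difference of 1.06 (edgeR adjusted p = 1.25e-10). Shmt2, which splits serine into glycine and a one-carbon unit in mitochondria, rose by 0.52 in PMJ2R and 0.40 in ID8. Mthfd1l, the mitochondrial formate-releasing enzyme, rose by 0.46 in PMJ2R and stood at -0.15 in ID8 (edgeR adjusted p = 0.0572), or at 0.30 (edgeR adjusted p = 0.000292) once length and GC trends were removed. Other settings called Mthfd1l lower in ID8: library totals (-0.59, edgeR adjusted p = 3.14e-06), genes averaging 5 CPM or more (-0.24, 0.00561), all 12 libraries in 1 fit (-0.16, 0.0229) and leaving out rebastinib replicate 1 (-0.20, 0.0149). With library totals as the scale, Shmt2 stood at -0.05 and Mthfd1l at -0.11 in PMJ2R, Mthfd1l then being called lower, and Psph at -0.05 and Shmt2 at -0.03 in ID8.

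Enzymes of asparagine, proline, sulfur amino acids and glutathione divided by line. In PMJ2R 4 of 6 were called higher and Cbs lower, against 40.3% and 43.3% of all genes. In ID8 Asns was the 1 called higher while Chac1, Pycr1 and Aldh18a1 were called lower, against 38.4% and 42.0% of all genes. Asns, asparagine synthetase, a classic ATF4 target, stood at 669, 661 and 657 CPM in PMJ2R rebastinib and at 191, 187 and 193 CPM in PMJ2R control. In ID8 it stood at 596, 618 and 581 CPM with rebastinib and at 307, 324 and 342 CPM in control. It was higher with rebastinib in every library of both lines, by 1.80 (SE 0.0429, edgeR adjusted p = 1.34e-16) in PMJ2R and 0.88 (SE 0.0699, edgeR adjusted p = 3.17e-08) in ID8, and the 0.85 between them passed (edgeR adjusted p = 6.09e-09). The promoter match of Asns is printed above.

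Chac1, which encodes an enzyme that degrades glutathione and is a sensitive target of ATF4 and CHOP, had the smallest p of the genes in ID8. It stood at 3.40, 3.38 and 3.08 CPM in ID8 rebastinib and at 78.2, 80.1 and 87.1 CPM in ID8 control. In PMJ2R it stood at 9.996, 10.2 and 9.19 CPM with rebastinib and at 10.9, 10.4 and 11.98 CPM in control, where the groups were adjacent without overlap. The ID8 level was 25-fold lower with rebastinib (log2 -4.64, SE 0.103, edgeR adjusted p = 5.12e-13). In PMJ2R the value was -0.18 (SE 0.102, edgeR adjusted p = 0.114). It passed as lower with library totals, with no filter, at a mean of 5 CPM and in a fit of all 12 libraries. Once length and GC trends were removed, Chac1 stood at 0.10 in PMJ2R (edgeR adjusted p = 0.36). The difference between the lines was 4.40 (SE 0.147, edgeR adjusted p = 8.18e-17).

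Cth, cystathionine gamma-lyase, which releases cysteine from cystathionine, had the largest rise among the 33 genes tested in PMJ2R, from a low base. It had 45.8, 40.7 and 39.4 CPM in PMJ2R rebastinib and 1.37, 1.58 and 1.82 CPM in PMJ2R control. In ID8 it had 4.98, 6.39 and 4.60 CPM with rebastinib and 4.10, 3.93 and 5.75 CPM in control, where the groups overlapped. The PMJ2R change was 26.3-fold (log2 4.72, SE 0.112, edgeR adjusted p = 1.34e-16), on 2013 counts in rebastinib and 146 in control. In ID8 it was 0.20 (SE 0.184, edgeR adjusted p = 0.327) and the difference 4.46 (SE 0.223, edgeR adjusted p = 1.18e-13). Cbs, the enzyme one step earlier, was called lower in PMJ2R (-0.33, edgeR adjusted p = 0.00931) and had 22 counts in ID8 rebastinib and 44 in ID8 control, too few to resolve its change there (log2 -0.51, SE 0.367, edgeR adjusted p = 0.215). Once length and GC trends were removed, Cbs stood at 0.14 in PMJ2R.

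Aldh18a1, which opens proline synthesis from glutamate, was higher in PMJ2R and lower in ID8. It had 488, 471 and 453 CPM in PMJ2R rebastinib and 271, 282 and 281 CPM in PMJ2R control. In ID8 it had 177, 161 and 177 CPM with rebastinib and 285, 281 and 298 CPM in control. The groups were apart in both lines, with log2 fold changes of 0.76 (SE 0.0445, edgeR adjusted p = 1.55e-11) in PMJ2R and -0.75 (SE 0.0677, edgeR adjusted p = 1.28e-07) in ID8, and a difference of 1.44 (SE 0.0831, edgeR adjusted p = 1.47e-12). With length and GC trends removed, the ID8 value of Aldh18a1 was -0.30 (edgeR adjusted p = 7.3e-05) and the PMJ2R value 1.32. Pycr1, which completes proline synthesis in mitochondria, was higher by 0.42 in PMJ2R (edgeR adjusted p = 0.000874), or -0.14 with library totals as the scale, and stood at -1.66 in ID8 (edgeR adjusted p = 4.41e-08). With no filter the PMJ2R call was lost (edgeR adjusted p = 0.127).

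The 8 amino acid transporters were divided in both lines, as were all genes tested. In PMJ2R 4 were called higher and 3 lower, against 40.3% and 43.3% of all genes. In ID8 2 were called higher and 5 lower, against 38.4% and 42.0% of all genes. Slc7a11, the cystine importer, and Slc7a5, the importer of large neutral amino acids, each pair with the heavy chain encoded by Slc3a2. In PMJ2R these 3 and Slc38a2 were called higher, Slc7a1, Slc1a5 and Slc6a9 lower, and Slc1a4 in neither direction. In ID8 Slc7a5 and Slc3a2 were called higher, Slc7a1, Slc1a4, Slc1a5, Slc38a2 and Slc6a9 lower, and Slc7a11 in neither direction. With library totals as the scale, Slc38a2 stood at -0.10 in PMJ2R and Slc7a5 at -0.24 in ID8, both then called lower, and Slc3a2 stood at 0.04 in ID8.

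Slc7a11 had 90.6, 86.2 and 92.6 CPM in PMJ2R rebastinib and 11.5, 11.5 and 11.4 CPM in PMJ2R control. In ID8 it had 67.1, 57.7 and 72.4 CPM with rebastinib and 68.0, 74.4 and 66.7 CPM in control, and the groups overlapped. The PMJ2R change was 7.83-fold (log2 2.97, SE 0.0624, edgeR adjusted p = 3.33e-17), whereas in ID8 the value was -0.08 (SE 0.0872, edgeR adjusted p = 0.391), and the difference 2.99 (SE 0.113, edgeR adjusted p = 6.21e-16). In ID8 the sign of Slc7a11 depended on processing, with 0.55 (edgeR adjusted p = 9.55e-06) once length and GC trends were removed, -0.51 with library totals (edgeR adjusted p = 0.000331) and 0.02 without rebastinib replicate 2. The 2 promoter matches of Slc7a11 lie in the stretch printed above.

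Slc7a5 rose by 1.44 in PMJ2R, to 1176 ± 1.14 CPM against 435 ± 47.7 CPM in control (SD, n = 3 each). In ID8 it rose by 0.19, to 754 ± 25.5 CPM against 660 ± 23.2 CPM in control (edgeR adjusted p = 0.0195). The ID8 call was lost with the replicate number as a block (edgeR adjusted p = 0.0811), with no filter (0.0571), among genes averaging 5 CPM or more (0.173), and on leaving out control replicate 2 (0.104) or 3 (0.0744). Slc3a2 rose by 1.45 in PMJ2R and by 0.48 in ID8. Slc38a2, a sodium-coupled neutral transporter that starved cells usually raise, was called higher in PMJ2R (0.46) and lower in ID8 (-0.52).

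The calls on the other 4 transporters depended on the correction for length and GC, except that of Slc1a5 in ID8. Slc7a1, the carrier of arginine and lysine, stood at -0.54 in PMJ2R and -0.74 in ID8. Slc1a5, a glutamine carrier, stood at -0.27 in PMJ2R and -0.83 in ID8, and Slc6a9, a glycine carrier, at -0.33 in PMJ2R and -0.52 in ID8, each past the test. Slc1a4, a carrier of serine and alanine, stood at 0.05 in PMJ2R (edgeR adjusted p = 0.456) and at -0.37 in ID8 (edgeR adjusted p = 0.000319). Once length and GC trends were removed, Slc7a1 stood at 0.00, Slc1a5 at 0.27, Slc6a9 at 0.29 and Slc1a4 at 0.60 in PMJ2R, the last 3 then called higher (Slc1a4 with edgeR adjusted p = 4.08e-10). With library totals as the scale Slc1a4 was called lower in PMJ2R (-0.52), as it was with no filter (-0.17). In ID8 the same correction put Slc7a1 at -0.05, Slc1a4 at 0.13, Slc38a2 at -0.04 and Slc6a9 at -0.06, none of them called lower, while Slc1a5 stood at -0.49 (edgeR adjusted p = 3.76e-07). Exons of Slc6a9 share bases with B4galt2, Ccdc24 and Gm17114 on the opposite strand, at most 27.8% with any of them.

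The secreted and receptor targets were lower where they were tested. Stc2, which encodes the glycoprotein stanniocalcin 2, fell in PMJ2R to 26.7 ± 0.483 CPM, against 64.3 ± 5.92 CPM in control (log2 -1.27, SE 0.0711, edgeR adjusted p = 8.17e-12, SD with n = 3 each). In ID8 it fell to 9.19 ± 1.31 CPM, against 15.5 ± 0.931 CPM in control (log2 -0.75, edgeR adjusted p = 4.25e-05). It was the 1 gene whose response was more negative in PMJ2R than in ID8 past the test (difference -0.59, edgeR adjusted p = 0.00114). Vldlr, a lipoprotein receptor induced by ATF4, had 24.7, 29.5 and 29.4 CPM in ID8 rebastinib and 73.7, 70.2 and 63.8 CPM in ID8 control, with no overlap (log2 -1.31, SE 0.0905, edgeR adjusted p = 8.1e-09). In PMJ2R it had 10 counts in all over the rebastinib libraries and 2 over the control libraries, a ratio per total of 6.45 with a 95% counting interval of 1.38 to 60.6. The difference between the lines called for Vldlr (4.23, SE 0.896) rested on these few counts.

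The difference of the response between the lines was tested directly, as an interaction over all 12 libraries. Of the 34 genes, 27 responded more positively in PMJ2R than in ID8 and Stc2 less, against 21.8% and 30.6% of the 16566 genes tested. By at least 2-fold, 14 were more positive and 0 more negative, against 11.0% and 11.5% of genes. All 7 transcription factors and all 5 feedback genes were among the 27, as were 5 of the 6 asparagine, proline, sulfur and glutathione genes, 6 of the 8 transporters, 3 of the 6 serine and one-carbon enzymes, and Vldlr. The genes that did not pass were Phgdh (-0.12), Psat1 (0.02), Shmt2 (0.05), Cbs (0.12), Slc7a1 (0.14) and Slc6a9 (0.13). Of these, Slc6a9 passed as more positive in PMJ2R with DESeq2 (0.25), with edgeR's RLE size factors (0.25) and with length and GC trends removed (0.28). Shmt2 passed with DESeq2 (0.17) and with those trends removed (0.28). Slc7a1 passed with the RLE size factors (0.26) and without ID8 rebastinib replicate 3 (0.23). The median difference was 0.88, against -0.10 over all genes, and it was 0.81 with library totals and 1.00 with DESeq2 or with RLE size factors. The share of counts on genes overlapping ribosomal RNA, given above, also differed more between rebastinib and control in PMJ2R than in ID8, and its part in the difference was not tested.

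In control cells the genes stood at different levels in the 2 lines. The control libraries were compared with a test against a 2-fold change (edgeR glmTreat), and levels are given per kilobase of exon so that genes can be compared. Of the 34, 3 were called higher in PMJ2R control than in ID8 control, Cbs, Stc2 and Atf3, against 15.4% of 15924 genes. A further 11 were called lower in PMJ2R control, Vldlr, Chac1, Ddit4, Slc7a11, Trib3, Nupr1, Ddit3, Cth, Cebpb, Slc6a9 and Atf5, against 23.3% of genes. The Cth call was lost with DESeq2 (adjusted p = 0.0636).

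In PMJ2R control the highest levels per kilobase were those of Shmt2 (234 ± 11.9 CPM per kb), Psat1 (226 ± 9.51), Phgdh (197 ± 5.48) and Atf4 (185 ± 8.38; SD, n = 3). The ranges of mean ± SD overlapped for Shmt2 and Psat1, and for Phgdh and Atf4. In ID8 control Atf4 stood first (343 ± 16.3 CPM per kb), then Slc7a5 (213 ± 7.93), Psat1 (182 ± 9.45) and Shmt2 (171 ± 5.48), and the ranges of Psat1, Shmt2 and Ddit4 (169 ± 8.44) overlapped. The 4 genes with the smallest p between the control lines were low in PMJ2R. Ddit4 was at 37.8, 41.6 and 41.5 CPM in PMJ2R control and at 300, 280 and 309 CPM in ID8 control (log2 -2.88, edgeR adjusted p = 6.49e-17). Chac1 was at 12.7, 12.3 and 14.3 CPM in PMJ2R control and at 93.6, 96.5 and 103 CPM in ID8 control (log2 -2.90, edgeR adjusted p = 6.49e-16). Slc7a11 was at 13.4, 13.6 and 13.6 CPM in PMJ2R control and at 81.4, 89.5 and 79.2 CPM in ID8 control (log2 -2.62, edgeR adjusted p = 2.94e-15).

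For none of these did the control groups overlap. Vldlr had 2 counts in PMJ2R control and 5447 in ID8 control, a ratio per total of 3030, ID8 control over PMJ2R control (95% counting interval 838 to 25000). Sesn2, in contrast, stood at 20.7 ± 1.37 CPM per kb in PMJ2R control and 20.9 ± 0.999 in ID8 control. The comparison of control lines shares its libraries with the treatment comparisons, so low control levels and large rises in PMJ2R are not independent observations.

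**Figure D4:**
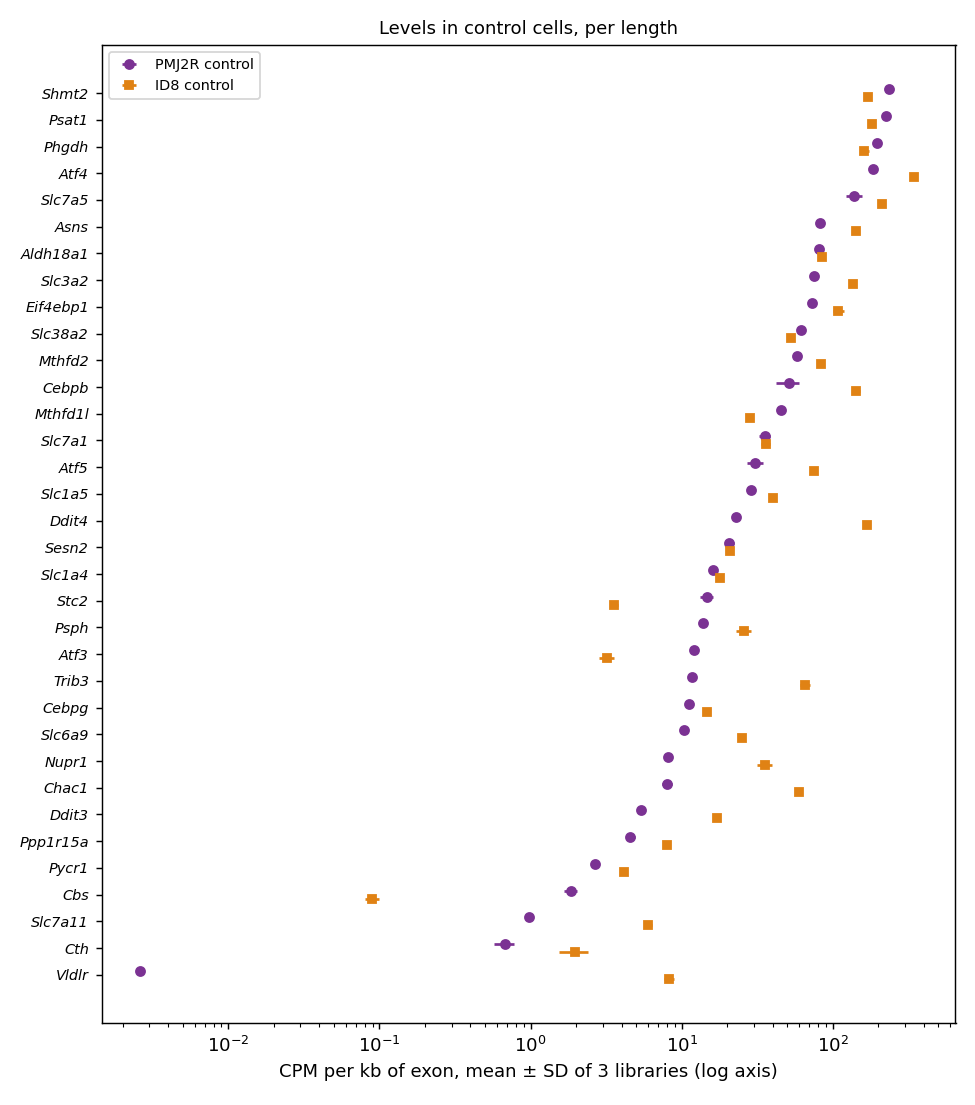
Level of each of the 34 genes in control cells, as CPM per kilobase of exon on a logarithmic axis, mean ± SD of 3 libraries, for PMJ2R control (circles) and ID8 control (squares), ordered by the level in PMJ2R. Shmt2, Psat1, Phgdh and Atf4 are near the top in both lines, Ddit4, Chac1, Trib3 and Slc7a11 lie to the left in PMJ2R, and Vldlr in PMJ2R, with 2 counts in all, is drawn with no error bar.

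Genes around the programme were read from 8 related lists, whose counts can be set against the shares of all genes given above. Of 20 other reported targets of ATF4 or CHOP tested in PMJ2R, 15 were higher and 5 lower, with a median of 1.03, and of 21 tested in ID8 9 were higher and 8 lower, with a median of 0.06. In PMJ2R these included the disulfide oxidase gene Ero1l (345 ± 4.49 CPM with rebastinib, 52.5 ± 1.86 CPM in control, log2 2.72) and the aminotransferase gene Gpt2 (1.75). Ero1l stood at -0.04 and Gpt2 at 0.06 in ID8, neither past the test. Higher in both lines were the aminotransferase gene Got1 (1.78 in PMJ2R and 1.07 in ID8), the pro-apoptotic gene Bbc3 (1.88 in PMJ2R and 1.15 in ID8) and the autophagy genes Map1lc3b (1.11 in PMJ2R and 1.42 in ID8) and Atg3 (0.90 in PMJ2R and 1.00 in ID8). The hormone gene Fgf21 fell in ID8 (-2.72) and was not tested in PMJ2R.

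Of 18 cytosolic tRNA synthetases, which charge transfer RNAs with amino acids, 12 were higher and 2 lower in PMJ2R (median 0.69) and 11 higher and 3 lower in ID8 (median 0.34). Rars, for arginine, rose in both lines, by 1.63 in PMJ2R and 1.49 in ID8, as did Tars (1.12 in PMJ2R and 0.86 in ID8). Also higher in both were Sars (1.37 in PMJ2R and 0.82 in ID8), Gars (1.09 in PMJ2R and 0.70 in ID8), Kars (0.67 in PMJ2R and 1.15 in ID8) and Qars (0.74 in PMJ2R and 0.76 in ID8).

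Upstream of ATF4, of 8 eIF2 kinases and regulators, 2 were higher and 6 lower in PMJ2R (median -0.34), and 4 higher and 2 lower in ID8 (median 0.19). Eif2ak2, the kinase PKR that senses double-stranded RNA, fell in both lines, to 8.55 ± 0.840 CPM with rebastinib against 44.8 ± 1.12 CPM in control in PMJ2R (-2.39) and to 9.66 ± 0.780 CPM against 39.5 ± 2.37 CPM in ID8 (-2.03). Eif2ak4, which encodes the amino acid sensor kinase GCN2, fell in PMJ2R (-0.93) and stood at 0.00 in ID8 (edgeR adjusted p = 0.984). Impact, an inhibitor of GCN2 activation, rose in both, by 2.10 in PMJ2R and 1.17 in ID8, while Gcn1l1, whose protein activates GCN2, fell in both (-0.33 in PMJ2R and -0.50 in ID8). Eif2ak1, the haem-regulated kinase, fell in PMJ2R (-0.36) and rose in ID8 (0.75), and so did Abcf1 (-0.64 in PMJ2R and 0.32 in ID8). Of 14 genes of eIF2, eIF2B and its phosphatase, 7 were higher and 5 lower in PMJ2R (median 0.30). In ID8 11 were higher and 1 lower (median 0.42). The eIF2 subunit gene Eif2s2 (1.16 in PMJ2R and 0.86 in ID8) had the smallest p of this list in both lines. Eif2b3 (0.90 in PMJ2R and 0.92 in ID8) and Ppp1ca (0.73 in PMJ2R and 0.82 in ID8) rose in both lines, as did Eif2s3x (0.97 in PMJ2R and 0.49 in ID8) and Eif2b2 (0.49 in PMJ2R and 0.90 in ID8).

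Of the genes of amino acid sensing upstream of mTORC1, 13 of 28 were higher and 14 lower in PMJ2R (median -0.17), and 15 of 29 were higher and 9 lower in ID8 (median 0.28). Depdc5, a subunit of the GATOR1 inhibitor of mTORC1, fell to 8.04 ± 0.135 CPM with rebastinib against 42.0 ± 0.853 CPM in control in PMJ2R (-2.39), and to 6.04 ± 0.911 CPM against 41.8 ± 1.32 CPM in ID8 (-2.79). Also lower in both lines were Castor2 (-3.33 in PMJ2R and -4.81 in ID8), of an arginine sensor family, and Mlst8 (-2.14 in PMJ2R and -1.83 in ID8), of an mTOR subunit. Higher in both were the Rag GTPase gene Rragc (1.31 in PMJ2R and 1.29 in ID8), the folliculin partner gene Fnip1 (2.28 in PMJ2R and 1.48 in ID8) and the mTORC1 activator gene Rheb (1.76 in PMJ2R and 0.73 in ID8).

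Other folate, methionine and glycine enzymes had 9 of 17 higher and 6 lower in PMJ2R (median 0.23) and 10 of 18 higher and 6 lower in ID8 (median 0.20). Gcsh, of the glycine cleavage system, rose in both (1.24 in PMJ2R and 1.70 in ID8). The dehydrogenase subunit gene Dld (1.90 in PMJ2R and 1.03 in ID8) and the purine enzyme gene Atic (0.47 in PMJ2R and 1.08 in ID8) rose in both lines as well, and the methionine adenosyltransferase gene Mat2a (-1.59 in PMJ2R and -1.27 in ID8) fell in both. The mitochondrial folate gene Aldh1l2 rose in PMJ2R (0.26) and fell in ID8 (-2.28). Enzymes of glutamine, aspartate, proline and arginine metabolism outside the 34 had 11 of 22 higher and 5 lower in PMJ2R (median 0.14), and 15 of 22 higher and 2 lower in ID8 (median 0.54). Those that rose in both lines included Bcat1 (1.32 in PMJ2R and 0.73 in ID8), Glud1 (0.98 in PMJ2R and 0.88 in ID8), Got2 (0.71 in PMJ2R and 0.79 in ID8) and Odc1 (0.22 in PMJ2R and 0.82 in ID8), and Asrgl1 (-1.19 in PMJ2R and -0.80 in ID8) fell in both. The glutathione synthesis gene Gclc fell in PMJ2R (-0.98) and rose in ID8 (0.43). Its partner gene Gclm stood at 0.02 in PMJ2R (edgeR adjusted p = 0.756) and rose in ID8 (1.32).

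The ATF6 and IRE1 branch of the unfolded protein response had 12 of 21 higher and 6 lower in PMJ2R (median 0.24) and 11 of 22 higher and 3 lower in ID8 (median 0.17). Xbp1, the transcription factor that IRE1 activates, fell in both lines, to 17.7 ± 1.69 CPM with rebastinib against 157 ± 4.47 CPM in control in PMJ2R (-3.15) and to 16.0 ± 0.864 CPM against 129 ± 2.51 CPM in ID8 (-3.01). Derl1, of the degradation channel in the endoplasmic reticulum, rose in both (2.26 in PMJ2R and 1.09 in ID8). So did Dnajb11 (0.58 in PMJ2R and 0.94 in ID8), Sec61b (1.31 in PMJ2R and 1.31 in ID8) and the IRE1 kinase gene Ern1 (1.98 in PMJ2R and 0.20 in ID8). Atf6 rose in PMJ2R (1.05) and stood at 0.12 in ID8 (edgeR adjusted p = 0.138).

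**Figure D5:**
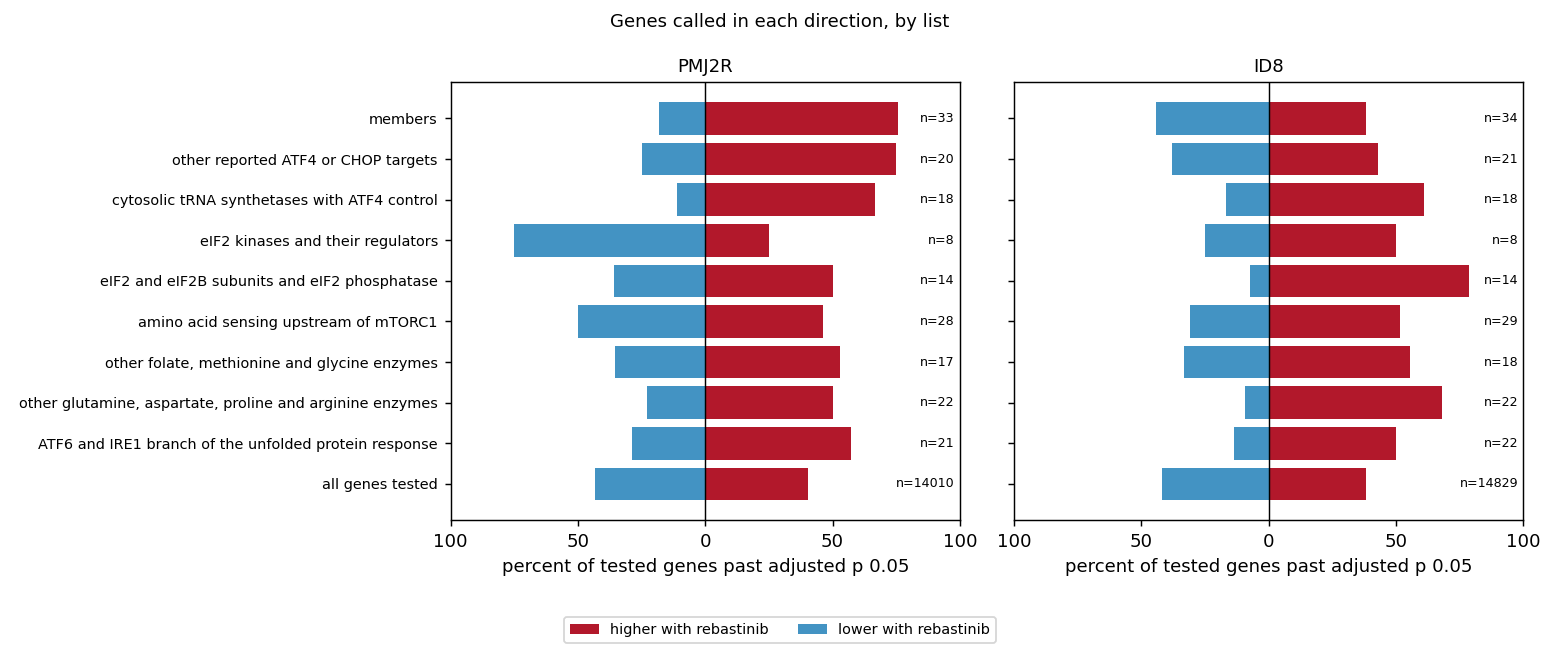
Percent of tested genes called higher (red, right) and lower (blue, left) with rebastinib in PMJ2R and ID8, for the 34 genes, 8 related lists and all genes tested, with the number tested at the right of each row. In PMJ2R the 34 genes, the other ATF4 or CHOP targets and the tRNA synthetases have the largest red bars, and all genes tested stand at 40.3% higher and 43.3% lower. With library totals as the scale, the share of higher genes among all calls was 26.3% in PMJ2R, in place of 48.2%, and 29.5% in ID8, in place of 47.7%.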

How the data were processed

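RNA was sequenced in 12 libraries, 3 in each of 4 groups read from the sample titles. The authors deposited 1 table of raw read counts per Ensembl gene. Per the submitters' processing notes, FastQC, STAR 2.6.1c, featureCounts and DESeq2 were used with mouse build GRCm38. For the counting, the annotation release, strand setting and treatment of multi-mapping reads are not given in the sources, so reads of overlapping genes on opposite strands cannot be told apart.

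Symbols were matched through the annotation of the same build, which left 181 identifiers without one, holding 0.00261% of counts. The deposited counts were analysed in R 4.3.3 with edgeR 4.0.16: TMM scaling, filterByExpr, robust quasi-likelihood fits, Benjamini-Hochberg adjustment over all genes tested and a threshold of 0.05. Each line was fitted on its own 6 libraries, the difference of the responses on all 12, and the control lines with glmTreat against a 2-fold change. CPM values are scaled within each fit, except those of the cell type markers, which use library totals. Counting intervals are exact, at 95%, and cover counting error only. The fit of each comparison was tested on simulated counts, that of the control lines with a test against no change. In the simulated counts a small set of genes changed, in random directions. They therefore cannot test the scaling where most genes change, as in the treatment comparisons. The other steps were not tested in this way.

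The 34 genes and the other lists were chosen with earlier results of these data known. Values are given library by library for Atf4, Ddit3, Asns and Chac1, for the 6 genes of smallest p in each treatment comparison and in the difference, and for the 4 of smallest p between the control lines. Of each other list, the 4 genes of smallest p in each line are named, except 1 gene that is not reported here. Alternatives were DESeq2 1.42.0, RLE size factors in edgeR, library totals, no filter, genes averaging 5 CPM or more, and a block for the replicate number. Others were removal of trends of transcript length and GC content, all 12 libraries in 1 fit, tests against other fold changes, and leaving out each library. The series' design also names chemotherapy arms, which were not analysed here.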

Additional observations from a re-analysis of the deposited data

Results flagged for a closer look

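The response to rebastinib differed between PMJ2R and ID8 for 28 of the 34 genes, by an edgeR interaction test over all 12 libraries with Benjamini-Hochberg adjustment, against 21.8% of all genes more positive and 30.6% more negative in PMJ2R. Values are differences of log2 fold change, PMJ2R minus ID8. Among transcription factors these were Atf5 (1.195), Atf4 (1.077), Atf3 (0.969), Nupr1 (0.851), Cebpb (0.799), Cebpg (0.645) and Ddit3 (0.608). Among feedback genes they were Ddit4 (3.686), Trib3 (3.159), Ppp1r15a (1.808), Sesn2 (1.512) and Eif4ebp1 (0.309). Among serine and one-carbon enzymes they were Mthfd2 (1.056), Psph (0.727) and Mthfd1l (0.546). Asparagine, proline, sulfur and glutathione enzymes gave Cth (4.456), Chac1 (4.4), Pycr1 (2.017), Aldh18a1 (1.443) and Asns (0.851). Transporters gave Slc7a11 (2.987), Slc7a5 (1.177), Slc38a2 (0.922), Slc3a2 (0.904), Slc1a5 (0.493) and Slc1a4 (0.347). Vldlr (4.229) rested on 12 counts in PMJ2R, and Stc2 (-0.589) was the 1 gene with a more negative response in PMJ2R.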

How the results depend on the processing

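With library totals as the scale, 19 genes were called higher and 11 lower in PMJ2R, and 6 higher and 21 lower in ID8. All genes called higher then numbered 3103 in PMJ2R (22.1%) and 3540 in ID8 (23.9%), while 61.9% in PMJ2R and 57.1% in ID8 were called lower. Under that scale log2 values changed sign in PMJ2R for Atf3 (-0.328), Shmt2 (-0.05), Mthfd1l (-0.109), Pycr1 (-0.144), Slc1a4 (-0.52) and Slc38a2 (-0.104), and in ID8 for Atf5 (-0.027), Cebpg (-0.113), Psph (-0.049), Shmt2 (-0.034), Cth (-0.232) and Slc7a5 (-0.239). They also changed sign in the difference for Psat1 (-0.048) and Shmt2 (-0.016), and between the control lines for Sesn2 (0.064), Aldh18a1 (0.015) and Slc7a1 (0.054). With length and GC trends removed, 27 genes were called higher and 2 lower in PMJ2R, and 15 higher and 12 lower in ID8, where 57.9% of all calls were higher. Of all genes tested, 45.8% were then higher and 37.3% lower in PMJ2R, and 47.5% higher and 34.6% lower in ID8. Signs changed in PMJ2R for Cbs (0.136), Chac1 (0.098), Slc7a1 (0.001), Slc1a5 (0.27) and Slc6a9 (0.293), in ID8 for Cebpb (0.017), Mthfd1l (0.295), Cbs (0.082), Slc7a11 (0.546) and Slc1a4 (0.129), and in the difference for Phgdh (0.128), Cbs (-0.077) and Slc7a1 (-0.088). With the replicate block added to that correction, 2 genes were lower in PMJ2R, and the same genes changed sign, in PMJ2R Cbs (0.139), Chac1 (0.099), Slc7a1 (0.001), Slc1a5 (0.271) and Slc6a9 (0.293), in ID8 Cebpb (0.015), Mthfd1l (0.294), Cbs (0.096), Slc7a11 (0.54) and Slc1a4 (0.128), and in the difference Phgdh (0.129), Cbs (-0.086) and Slc7a1 (-0.084). In PMJ2R Slc1a4 also turned to -0.168 with no filter, -0.014 at a mean of at least 5 CPM and -0.023 in the fit of all 12 libraries. In the difference Phgdh turned to 0.002 with DESeq2 and 0.005 with RLE size factors, and with no filter Psat1 turned to -0.037 and Shmt2 to -0.006. A test against a 1.5-fold change, which asks for a larger change, called 19 genes higher and 1 lower in PMJ2R. In ID8 it called 5 higher and 9 lower. Of all genes, 3358 were then higher in PMJ2R (24%) and 3294 in ID8 (22.2%), and 30.1% in PMJ2R and 28.7% in ID8 were lower. Between the control lines, a test against no change called 8 genes higher and 22 lower, and of all genes 6280 higher and 6833 lower, while a mean of at least 5 CPM, which leaves fewer genes, gave 1376 of all genes higher and 2157 lower.

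Leaving out 1 library at a time gave 25 genes higher and 6 lower in PMJ2R, against 38 to 40.6% and 41.2 to 43.9% of all genes. In ID8 it gave 12 to 13 higher and 15 to 16 lower, against 36.1 to 38.2% and 39.6 to 42% of all genes. The difference had 26 to 27 higher and 1 lower, against 19.3 to 22.2% and 28 to 30.1%. Between the control lines 3 were higher and 11 lower, against 15.1 to 15.3% and 22.9 to 23.9%. Signs changed among small values: in ID8 Ddit3 ranged from -0.208 to 0.046 (without rebastinib replicate 3) and Slc7a11 from -0.141 to 0.018 (without rebastinib replicate 2). In the difference Psat1 ranged from -0.031 to 0.051 and Cbs from -0.057 to 0.21, and between the control lines Sesn2 ranged from -0.069 to 0.036 and Slc7a1 from -0.101 to 0.039. With the replicate block, 25 genes were higher and 6 lower in PMJ2R, against 40.4% and 43.3% of all genes. In ID8 12 were higher and 15 lower, against 36.6% and 40.4% of all genes. The difference then had 26 higher and 1 lower, against 20.4% and 28.6%. Between the control lines 3 were higher and 11 lower, against 15.2% and 23%. The labels do not say that equal numbers mark a pair, and libraries of equal number correlated at -0.005 to 0.034 in PMJ2R and -0.225 to -0.037 in ID8 in their deviations from group means, so the numbers were not taken as pairs. The cause of these changes was not tested. Depth limited Cbs in ID8, with 22 counts in rebastinib and 44 in control, and Vldlr in PMJ2R, with 10 in rebastinib and 2 in control.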

Other observations

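The palindromic site TGACGTCA, to which ATF and CREB dimers bind, occurred in the promoter window of 1 of the 30 genes with a window, Ppp1r15a, against 2.03% of all genes with a window. The 4 genes without a window in the sequence table were Eif4ebp1, Cth, Slc7a5 and Slc1a5.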
